A study of Mus musculus with 4 samples.

Results

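The genes described here are the WNT ligands, their receptors, their inhibitors and the nearest transcriptional readouts of the pathway, in mouse cortical astrocytes with and without a conditional deletion of Ezh2. They were chosen by symbol from the protein-coding rows of the deposited count table, which gave 56 of the 29224 genes listed. The set holds 19 WNT ligands, 10 frizzled receptors, the co-receptors Lrp5 and Lrp6, 4 R-spondins, 3 R-spondin receptors of the Lgr family, 10 secreted inhibitors, the membrane inhibitor Apcdd1, 5 transcriptional effectors and the feedback genes Axin2 and Nkd1. The rule used symbols alone.

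WNT proteins are lipid-modified secreted signals that bind frizzled receptors together with Lrp5 or Lrp6. In the canonical branch this binding stops the destruction complex, built on Axin and Apc, from degrading β-catenin, which then acts in the nucleus with TCF and LEF factors. Secreted frizzled-related proteins (Sfrp), Dickkopf proteins (Dkk), Wif1 and the enzyme Notum act outside the cell to limit the signal, while R-spondins acting through Lgr receptors prolong it. In the developing cortex Wnt7a and Wnt7b are known as signals from neural cells to brain endothelium, where they promote vessel growth and the blood–brain barrier. EZH2 is the enzyme of Polycomb repressive complex 2 that methylates lysine 27 of histone H3, and many WNT ligand genes are textbook Polycomb targets in stem cells.

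Cells came from the cerebral cortex at P5. Ezh2 f/f mice, which carry floxed Ezh2 alleles, were compared with Ezh2 cKO mice, which carry the same alleles together with the Aldh1l1-icre transgene, a recombinase driven by the astrocyte gene Aldh1l1. Astrocytes were taken with beads against GLAST, a glutamate transporter that radial glia also carry. Each group had 2 libraries, and no source says how many animals each one holds, so the p-values measure only the spread between these libraries.

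Library totals were between 16273308 and 17522152 counts. Ezh2 had 434 and 327 counts in Ezh2 f/f against 211 and 164 in Ezh2 cKO, for a log2 fold change of -1.11 (SE 0.16, adjusted p = 3.26e-05, edgeR). The bead-sorted cells carried RNA of neurons beside that of astrocytes. In Ezh2 f/f the 10 pan-neuronal genes summed to 6182 and 6526 CPM (counts scaled to library size, with TMM factors) and the 12 astrocyte genes to 648 and 705 CPM. In Ezh2 cKO the neuronal genes summed to 7898 and 7851 CPM and the astrocyte genes to 3345 and 3049 CPM, with 10 of the 12 astrocyte genes called higher and none lower. Of the 10 neuronal genes 9 were called higher and only Tubb3, which gave 3563 of the 6182 CPM in the first Ezh2 f/f library, was called lower. Markers of oligodendrocytes (6 of 6 tested), their precursors (7 of 7) and microglia (8 of 8) were called higher too, and 8 of 11 neural progenitor genes were called lower and 3 higher. Genes of neuron classes were mixed. Of 8 excitatory neuron genes 1 was called higher and 5 lower, and of 9 inhibitory interneuron genes 2 were called higher and 4 lower. The oligodendrocyte genes summed to 67.9 and 83.5 CPM and then to 838 and 716 CPM, the precursor genes to 248 and 246 and then 758 and 699 CPM, and the microglial genes to 80.3 and 85.0 and then 275 and 239 CPM. The 4 markers of immature neurons fell from 1504 and 1395 to 316 and 365 CPM. The 6 cycling genes summed to 91.8 and 93.7 CPM in Ezh2 f/f and to 50.8 and 47.0 CPM in Ezh2 cKO, and the 6 ependymal and choroid plexus genes to 398 and 781 and then 14.7 and 12.8 CPM. Nearly all of the choroid sum in Ezh2 f/f was Ttr, with 6326 and 11598 counts there against 5 and 12 in Ezh2 cKO. In both groups Xist marked replicate 2 and the Y-linked Ddx3y marked replicate 1, so the replicate number moved with these genes. No WNT gene studied here lies on the X chromosome. Libraries of mixed cells cannot tell fewer cells of a type from less RNA per cell, which holds for every level below.

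Replicate 2 of Ezh2 f/f stood apart from the other libraries in some genes of the thalamus and midbrain. A list of 9 such regulators, chosen after their values were seen (Gbx2, Pou4f1, Irx1, Irx2, Gata3, Otx2, Tfap2b, Lhx9 and Tal1), summed to 66.2 CPM in it, against 10.2 CPM in Ezh2 f/f replicate 1 and 7.26 and 8.25 CPM in Ezh2 cKO. Because of that choice the sum is a description and not a test, and 5 of the 9 were too low to be tested. Among the WNT genes Ezh2 f/f replicate 2 held most counts of Tcf7l2, Wnt9b and Dkk1. Results that rest on it are given with and without it.

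Of the 56 genes, 49 passed the filter on low counts and were tested. The test was edgeR's quasi-likelihood test with Benjamini-Hochberg adjustment over all 16793 genes tested, and genes with an adjusted p under 0.05 were called. In Ezh2 cKO 9 of the 49 were called higher (18.4%), where 34.7% of all genes tested were, and 22 were called lower (44.9%), where 33.6% of all genes were. At least a 2-fold change was seen on the higher side in 7 of the 49, where 19.0% of all genes had one. On the lower side it was seen in 8 of the 49, where 14.0% of all genes had one. The median log2 fold change of the 49 was -0.19, beside 0.015 over all genes tested. Libraries of the groups did not overlap for 41 of the 49, beside 84.3% of all genes tested. By these shares the calls leaned to lower levels, but at 2-fold the lower share was near that of all genes. The largest changes went both ways.

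**Figure D1:**
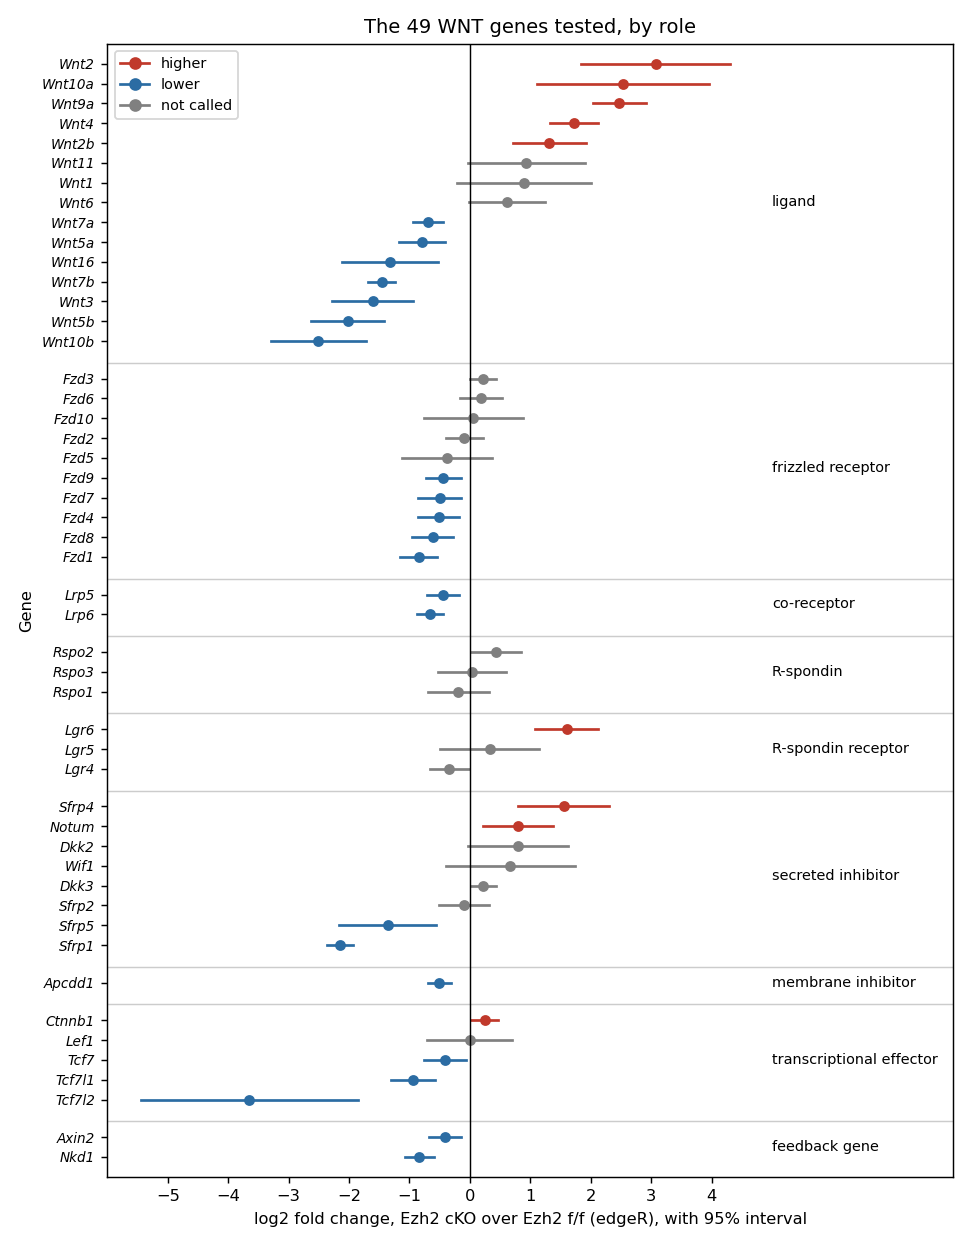
log2 fold change (Ezh2 cKO over Ezh2 f/f) of the 49 WNT genes tested, with 95% intervals from edgeR, grouped by role; red genes were called higher, blue genes lower and grey genes were not called. The ligands split into 5 called higher and 7 called lower, and none of the 10 frizzled receptors was called higher.

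Of the 7 genes that did not pass the filter, 6 had low counts in every library, and Wnt9b was counted almost entirely in a single one. Wnt3a, Wnt8a, Wnt8b, Rspo4 and Dkk4 had between 0 and 6 counts in every library. A count of 0 allows up to 3 counts, which is 0.171 to 0.184 CPM at these depths and covers counting error only. Wnt9b, a ligand, had 0 and 75 counts in Ezh2 f/f against 0 and 1 in Ezh2 cKO. Dkk1, an inhibitor that captures Lrp5 and Lrp6, had 1 and 11 counts in Ezh2 f/f against 0 in both Ezh2 cKO libraries. For both genes the counts above the others were in Ezh2 f/f replicate 2.

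Promoter sequence was available for 37 of the 56 genes, in 46 windows that run from 250 bases before to 50 bases after a RefSeq start site (GRCm38.p6). Wnt5a, Wnt7b, Wnt10a and Sfrp1 were among the genes without a window. PRC2 is known to occupy promoters rich in CpG dinucleotides. The windows of 4 called ligands, 2 in each direction, are therefore shown as examples, which no rule selected. Each CG is in capitals, 5′ to 3′ along the gene's strand. Wnt4 (chr4:137277385-137277684, plus strand) and Wnt9a (chr11:59306680-59306979, plus strand) were called higher. Wnt7a (chr6:91411304-91411603, minus strand) and Wnt10b (chr15:98778101-98778400, minus strand) were called lower.
Wnt4: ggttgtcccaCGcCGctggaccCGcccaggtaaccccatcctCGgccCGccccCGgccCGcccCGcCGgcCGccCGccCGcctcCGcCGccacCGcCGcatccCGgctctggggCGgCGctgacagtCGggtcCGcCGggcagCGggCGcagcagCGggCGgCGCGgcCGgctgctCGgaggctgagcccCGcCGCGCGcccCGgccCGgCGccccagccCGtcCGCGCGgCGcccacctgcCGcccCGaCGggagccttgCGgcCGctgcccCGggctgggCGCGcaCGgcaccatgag
Wnt9a: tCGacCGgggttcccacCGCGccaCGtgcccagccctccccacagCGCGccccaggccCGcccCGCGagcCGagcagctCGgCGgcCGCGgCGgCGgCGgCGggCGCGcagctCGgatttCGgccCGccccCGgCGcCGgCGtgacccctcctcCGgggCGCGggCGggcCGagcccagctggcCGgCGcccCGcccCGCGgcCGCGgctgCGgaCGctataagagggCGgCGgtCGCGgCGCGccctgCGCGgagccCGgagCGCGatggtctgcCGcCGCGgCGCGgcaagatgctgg
Wnt7a: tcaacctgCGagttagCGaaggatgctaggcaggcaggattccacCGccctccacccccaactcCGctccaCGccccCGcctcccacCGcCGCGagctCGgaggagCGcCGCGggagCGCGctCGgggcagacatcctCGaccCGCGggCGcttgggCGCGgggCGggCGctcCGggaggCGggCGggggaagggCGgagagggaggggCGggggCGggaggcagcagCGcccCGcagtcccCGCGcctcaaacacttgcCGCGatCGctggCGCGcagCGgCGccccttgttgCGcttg
Wnt10b: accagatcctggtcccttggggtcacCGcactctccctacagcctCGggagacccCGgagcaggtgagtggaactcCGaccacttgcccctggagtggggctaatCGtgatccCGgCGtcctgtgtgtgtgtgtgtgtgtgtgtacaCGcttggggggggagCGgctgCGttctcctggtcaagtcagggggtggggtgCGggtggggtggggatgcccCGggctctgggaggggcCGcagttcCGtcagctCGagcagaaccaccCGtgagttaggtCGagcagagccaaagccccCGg

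CpG was dense in both directions of change. The Wnt4 window held 51 CG and was 84.3% G or C, and the Wnt9a window held 58 CG at 83.3%. Wnt7a followed with 42 CG at 76.0%, and Wnt10b had 18 CG at 66.3%. Among called ligands not shown, Wnt2 (higher) had 27 CG and the windows of Wnt5b (lower) had 4, 7 and 47 CG. Over the 7 windows of the genes called higher the median was 46 CG, over the 19 windows of those called lower it was 24 and over the 15 of those not called it was 23. All 46 windows had a median of 25.5 CG, beside 13 over the 21262 windows of protein-coding genes and 7 over all 32851 windows. These are counts of letters, given as a description, and no mark on histones was measured in these files.

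The windows were also searched on both strands for CTTTGAA or CTTTGAT or CTTTGTA or CTTTGTT, letters that TCF and LEF factors are known to bind. CTTTGTT, read on the other strand, also carries letters that SOX factors bind. They stood in 7 of the 46 windows (15.2%), beside 14.7% of the windows of protein-coding genes and 16.9% of all windows. None of the 7 windows of genes called higher held them, while 4 of the 19 windows of genes called lower did, at Wnt3, Wnt5b, Fzd7 and Tcf7l2. Lef1, Wnt11 and Dkk1 gave the others, and Dkk1 alone held 2 matches, which did not overlap. The windows of the feedback genes Axin2 and Nkd1 held none. The Wnt3 window (chr11:103773925-103774224, plus strand) is shown with the match in capitals, because Wnt3 is the ligand with the match nearest its start, beginning 18 bases after it. A match is a description of the letters and says nothing of whether a factor sits there.
Wnt3: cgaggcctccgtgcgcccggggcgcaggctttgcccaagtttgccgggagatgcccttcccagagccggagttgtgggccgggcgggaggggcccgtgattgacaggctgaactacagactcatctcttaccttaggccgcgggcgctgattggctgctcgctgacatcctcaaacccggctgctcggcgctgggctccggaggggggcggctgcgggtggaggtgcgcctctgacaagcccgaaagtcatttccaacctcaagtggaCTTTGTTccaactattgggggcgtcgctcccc

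Among ligands the group with the highest level fell and several weaker ones rose. Of the 15 ligands tested, 5 were called higher (33.3%) and 7 lower (46.7%), beside 34.7% and 33.6% of all genes tested. The other 3 were not called, and all but 2 of the 12 called changed at least 2-fold. Wnt7b (ENSMUSG00000022382, listed at chr15:85419638-85466674, minus strand, positions as deposited) was the most abundant ligand per gene length in every library. It had 4794 and 3912 counts in Ezh2 f/f against 1855 and 1507 in Ezh2 cKO, so the groups stood far apart. Its level fell from 265 ± 22.4 to 96.1 ± 12.9 CPM (SD, n = 2), which is a log2 fold change of -1.46 (SE 0.11, adjusted p = 3.85e-08, edgeR). Wnt7a, its close relative, had 556 and 522 counts and then 356 and 354, and fell by 0.69 on the log2 scale (adjusted p = 0.000104, edgeR). Both members of this pair fell in all 12 alternative analyses. The endothelial cells that are known to receive these ligands gave similar totals in the groups, with 10 marker genes summing to 275 and 265 CPM in Ezh2 f/f and to 304 and 262 CPM in Ezh2 cKO. Of those 10, 7 were not called, including Pecam1 and Cldn5, which alone gave 121 and 116 CPM of the Ezh2 f/f sums. Flt1 rose (0.54, adjusted p = 0.00312, edgeR), Cdh5 fell (-0.29, adjusted p = 0.0443, edgeR) and Slco1a4, a transporter of the mature barrier, rose from 7 and 9 counts to 160 and 141.

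Wnt4 and Wnt9a rose against this trend. Wnt4, known for its role in kidney and female reproductive tract development, had 156 and 246 counts in Ezh2 f/f against 753 and 669 in Ezh2 cKO. The lowest Ezh2 cKO library was thus well above the highest Ezh2 f/f library, although the Ezh2 f/f libraries also differed from one another. Its log2 fold change was 1.72 (SE 0.18, adjusted p = 1.64e-06, edgeR), from 12.4 ± 4.61 to 40.7 ± 2.90 CPM (SD, n = 2). Wnt9a, a ligand studied in joint formation, had 43 and 56 counts and then 319 and 270. This was a log2 fold change of 2.47 (SE 0.20, adjusted p = 1.22e-07, edgeR), a 5.55-fold higher level. Wnt4 is listed at chr4:137004800-137027037 and Wnt9a at chr11:59197754-59224378, both on the plus strand.

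The other ligands called higher were low in every library. Wnt2b had 24 and 30 counts in Ezh2 f/f against 72 and 72 in Ezh2 cKO (log2 fold change 1.32, adjusted p = 0.000892, edgeR). Wnt2 had 3 and 2 counts and then 28 and 19. The ratio of its group totals, scaled to library size, was 9.34, with a 95% counting interval of 3.73 to 30.1. Wnt10a had 2 counts in each Ezh2 f/f library and 12 and 14 in Ezh2 cKO, a ratio of 6.46 with an interval of 2.24 to 25.5. Neither Wnt2 nor Wnt10a overlapped between groups, as was so for 84.3% of all genes tested, and both stayed under 2 CPM. Both passed the filter on low counts only through Ezh2 cKO, where they were high, so their calls are not independent of that filter. With DESeq2's Wald test Wnt10a was no longer called (adjusted p = 0.0598, within 0.00278 to 0.0598 over its alternatives).

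A group of 5 low or middling ligands fell beside Wnt7a and Wnt7b. Wnt10b, known to favour bone over fat in mesenchymal cells, had 62 and 46 counts in Ezh2 f/f against 12 and 8 in Ezh2 cKO (log2 fold change -2.51, SE 0.37, adjusted p = 3.16e-05, edgeR). Wnt5b had 166 and 130 counts and then 25 and 52 (-2.03, adjusted p = 2.23e-05, edgeR). It overlaps Fbxl14 on the other strand by 2963 bases, a gene with 670 and 640 counts in Ezh2 f/f against 357 and 288 in Ezh2 cKO, and without knowing whether counting used strand the reads of the pair cannot be told apart. Wnt3 had 85 and 148 counts in Ezh2 f/f against 49 and 33 in Ezh2 cKO (-1.61, adjusted p = 0.000407, edgeR). Here the higher Ezh2 f/f value came from replicate 2, and without that library the log2 fold change was -1.08 (adjusted p = 0.000826, range 1.63e-12 to 0.0758 over its alternatives, the last without an FPKM filter). Wnt16 had 33 counts in both Ezh2 f/f libraries and 12 and 16 in Ezh2 cKO (-1.32, adjusted p = 0.00609, edgeR). Its call was lost without Ezh2 cKO replicate 1 (adjusted p = 0.0651, range 0.00394 to 0.0651) and with DESeq2. Wnt5a, the main ligand of the β-catenin-independent branch, had 13.7 ± 0.70 CPM in Ezh2 f/f against 7.92 ± 1.40 CPM in Ezh2 cKO (SD, n = 2; log2 fold change -0.79, adjusted p = 0.00106, edgeR). Of the 5 ependymal and choroid plexus markers tested, 4 (Ttr, Foxj1, Folr1 and Clic6) fell as these 5 ligands did while Kl rose, and their part in these changes was not tested.

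The other 3 ligands were not called. Wnt11 had 8 and 10 counts in Ezh2 f/f against 20 and 17 in Ezh2 cKO (log2 fold change 0.94, 95% interval -0.04 to 1.91). Wnt6 gave 0.61 (-0.02 to 1.24), and Wnt1, which patterns the midbrain, gave 0.89 (-0.21 to 2.00). All point estimates were above 0, with intervals that include 0. Without Ezh2 f/f replicate 2 Wnt1 was called higher, at 1.53 (adjusted p = 0.034, edgeR, range 0.034 to 0.621). Wnt6 was called higher by limma on log2(FPKM + 1) and on log2(FPKM + 0.1) (adjusted p = 0.0272 and 0.0346, range 0.0272 to 0.301).

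**Figure D2:**
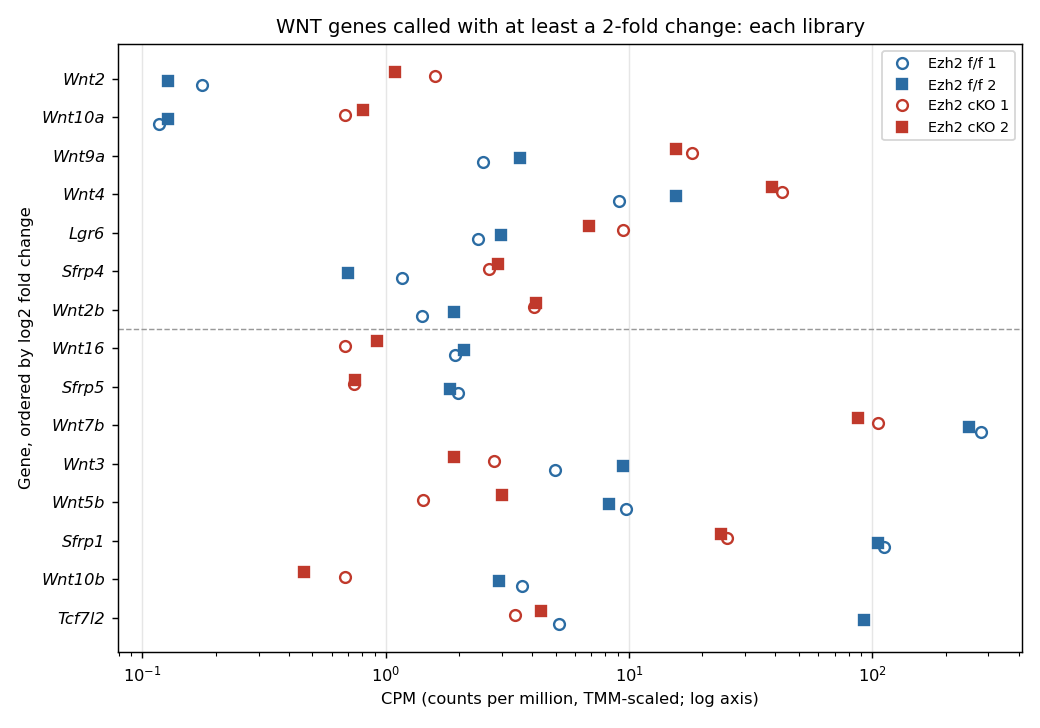
CPM (log axis) in each library for the 15 WNT genes called with at least a 2-fold change, ordered by log2 fold change; blue marks are Ezh2 f/f, red marks Ezh2 cKO, open circles replicate 1 and filled squares replicate 2, with the genes called higher above the dashed line. The genes were selected by their difference between these same libraries, so the separation of the groups is not a further result. For Tcf7l2 a single Ezh2 f/f library sits at 92.7 CPM while the other 3 lie between 3.40 and 5.15 CPM.

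The sum over ligands fell while its make-up shifted. Levels were compared between genes as FPKM, which scales counts to gene length. The 19 ligands summed to 78.7 and 75.6 FPKM in Ezh2 f/f and to 51.2 and 46.6 FPKM in Ezh2 cKO. Wnt7b alone made up 71.0% and 64.9% of that sum in Ezh2 f/f against 42.7% and 39.6% in Ezh2 cKO. Without Wnt7b the other 18 ligands summed to 22.8 and 26.6 FPKM and then to 29.4 and 28.2 FPKM, so the drop of the total lay in Wnt7b. Wnt4 went from 2.70% and 4.77% of the ligand sum to 20.2% and 20.5%, moving from rank 4 to rank 2. Wnt9a went from 0.937% and 1.37% to 10.8% and 10.4%, moving from rank 8 to rank 4. Wnt7a kept a share near its start, with 12.7% and 13.4% in Ezh2 f/f against 12.6% and 14.4% in Ezh2 cKO, although its level fell.

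**Figure D3:**
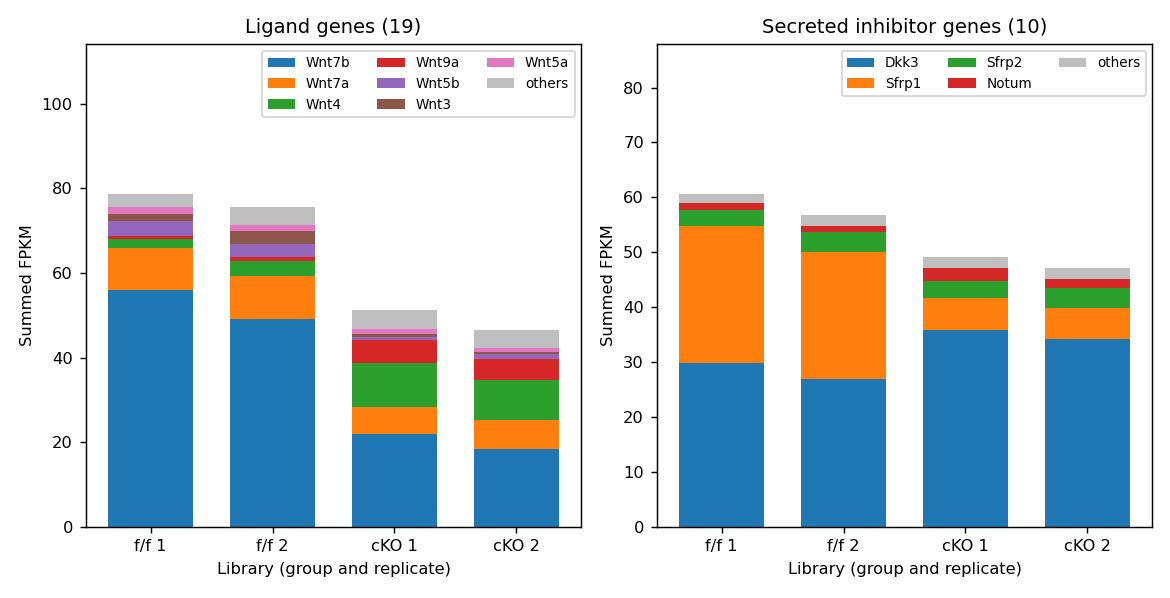
Summed FPKM of the 19 ligand genes (left) and the 10 secreted inhibitor genes (right) in each library, with the most abundant genes as coloured segments of the bars. Wnt7b shrinks in both Ezh2 cKO libraries while Wnt4 and Wnt9a widen, and among inhibitors Sfrp1 shrinks while Dkk3 stays the largest segment.

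Frizzled receptors that were called had all fallen in the fit of all libraries, although Fzd10 and Fzd3 were called higher in some alternatives. Of 10 tested, 5 were called lower (50%), beside 33.6% of all genes tested, and none changed 2-fold. Fzd9, the most abundant per gene length in every library, had 8.61 and 9.03 FPKM in Ezh2 f/f against 6.84 and 6.93 FPKM in Ezh2 cKO, with a log2 fold change of -0.44 (adjusted p = 0.00962, edgeR). Fzd1 fell most, by 0.85 on the log2 scale, from 384 and 380 counts to 210 and 243 (adjusted p = 0.000116, edgeR). Fzd8 fell by 0.62, Fzd4 by 0.51 and Fzd7 by 0.50. Fzd4, the receptor that with Tspan12 and Lrp5 binds the ligand Norrin in retinal vessels, had 218 and 199 counts in Ezh2 f/f against 155 and 156 in Ezh2 cKO. Tspan12 rose instead, from 70 and 58 counts to 186 and 193 (log2 fold change 1.47, adjusted p = 1.05e-05, edgeR). Calls for Fzd4, Fzd7 and Fzd9 were lost without Ezh2 cKO replicate 1, with adjusted p of 0.0631, 0.0572 and 0.0555. Without Ezh2 cKO replicate 2 those of Fzd7 and Fzd9 were lost too, at 0.0802 and 0.0612, and without Ezh2 f/f replicate 1 that of Fzd7, at 0.0515. Across all 12 alternatives the adjusted p of Fzd4 lay between 0.00889 and 0.129, that of Fzd7 between 0.0127 and 0.0899 and that of Fzd9 between 0.00781 and 0.0612. With limma on FPKM Fzd4 was not called, and without the FPKM filter Fzd7 and Fzd8 were not called either. DESeq2 did not call Fzd7. Fzd1 kept its call in all 12 alternatives.

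The other 5 frizzled receptors were not called. Fzd3 (log2 fold change 0.22, 95% interval 0.01 to 0.44), which guides axons through planar polarity, and Fzd6 (0.18, -0.17 to 0.53) lay slightly above 0. Fzd3 was called higher with a mean of at least 50 counts (adjusted p = 0.0313, edgeR) and without Ezh2 cKO replicate 1 (0.32, adjusted p = 0.0387, range 0.0313 to 0.414). Fzd2 gave -0.09 (-0.39 to 0.21). Fzd10 had 33 and 99 counts in Ezh2 f/f against 73 and 75 in Ezh2 cKO, so both Ezh2 cKO libraries lay between the Ezh2 f/f libraries. Its log2 fold change was 0.05 with all libraries, 1.13 without Ezh2 f/f replicate 2 (adjusted p = 0.00164, edgeR, range 0.00164 to 0.979) and -0.56 without replicate 1. Fzd5, with 28 and 47 counts and then 34 and 28, likewise changed sign between these settings (-0.38 with all libraries, 0.11 without Ezh2 f/f replicate 2). The summed frizzled level was 32.7 and 35.1 FPKM in Ezh2 f/f against 29.1 and 30.0 FPKM in Ezh2 cKO.

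Both co-receptors fell. Lrp6 had 895 and 800 counts in Ezh2 f/f against 552 and 585 in Ezh2 cKO, for a log2 fold change of -0.67 (SE 0.10, adjusted p = 4.04e-05, edgeR). Lrp5 had 453 and 460 counts and then 369 and 347 (-0.45, SE 0.12, adjusted p = 0.00539, edgeR). Groups did not overlap for either gene, as was so for 84.3% of all genes tested. With limma on FPKM, with or without the FPKM filter, Lrp5 was not called. Lrp6 kept its call in all 12 alternatives, while Lrp5 lost it without Ezh2 cKO replicate 2 (adjusted p = 0.0588, range 0.00157 to 0.114).

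R-spondins and their receptors gave a single call. None of the 3 R-spondins tested was called: Rspo1 had a log2 fold change of -0.19 (95% interval -0.70 to 0.32), Rspo2 of 0.43 (0.02 to 0.84) and Rspo3 of 0.03 (-0.53 to 0.59). Without Ezh2 f/f replicate 1 Rspo2 was called higher, at 0.64 (adjusted p = 0.0161, edgeR, range 0.0161 to 0.3). Rspo1, the highest of them by mean FPKM, had 72 and 62 counts in Ezh2 f/f against 65 and 60 in Ezh2 cKO. Among the receptors Lgr6, a stem cell marker of skin, had 41 and 47 counts in Ezh2 f/f against 167 and 119 in Ezh2 cKO. It rose with a log2 fold change of 1.60 (SE 0.24, adjusted p = 4.72e-05, edgeR) in every alternative. Lgr4, the most abundant of the 3, had 247 and 251 counts and then 224 and 196 (-0.34, -0.67 to -0.01; not called). Without Ezh2 f/f replicate 1 Lgr4 was called lower, at -0.40 (adjusted p = 0.0487, edgeR, range 0.0487 to 0.267). Lgr5, the marker of intestinal stem cells, gave 0.33 (-0.50 to 1.15) at 14 to 24 counts a library, and it overlaps A930009A15Rik on the other strand by 12463 bases.

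Secreted inhibitors split. Of 8 tested, 2 were called higher and 2 lower (25% each), beside 34.7% and 33.6% of all genes tested, and 4 were not called. Sfrp1 (ENSMUSG00000031548, listed at chr8:23901518-23939648, plus strand) binds WNT proteins directly and is known from radial glia. It had 1908 and 1653 counts in Ezh2 f/f against 445 and 412 in Ezh2 cKO. This gave the smallest p of the 49 genes, with a log2 fold change of -2.15 (SE 0.10, adjusted p = 5.72e-10, edgeR). Its level was 4.42-fold lower, going from 108 ± 4.61 to 24.5 ± 1.03 CPM (SD, n = 2), and in the alternatives the log2 fold change lay between -1.89 and -2.19. Sfrp5 fell with it, from 34 and 29 counts to 13 in each Ezh2 cKO library (-1.36, adjusted p = 0.0053, edgeR), a call that DESeq2 did not make (adjusted p = 0.0541, range 0.00416 to 0.0541). Sfrp4 went the other way, with 20 and 11 counts and then 47 and 50 (1.55, SE 0.35, adjusted p = 0.0013, edgeR). Notum, the enzyme that removes the lipid from WNT proteins, had 50 and 42 counts and then 105 and 66 (0.80, adjusted p = 0.0178, edgeR). DESeq2 did not call Notum, nor did limma on log2(FPKM + 1) without an FPKM filter. Without Ezh2 cKO replicate 1, the higher of the Ezh2 cKO libraries, Notum was at 0.44 and not called (adjusted p = 0.258, range 0.00861 to 0.258).

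Dkk3 took a larger share of the inhibitor level in Ezh2 cKO. It is a divergent Dickkopf member, and it had 29.8 and 26.9 FPKM in Ezh2 f/f against 35.8 and 34.2 FPKM in Ezh2 cKO. Its log2 fold change of 0.22 (95% interval 0.02 to 0.43, adjusted p = 0.0519, edgeR) was not called, although it was called in 5 alternatives. Dkk3 made up 49.2% and 47.3% of the secreted inhibitor FPKM in Ezh2 f/f against 72.8% and 72.6% in Ezh2 cKO. Sfrp1 went from 41.1% and 40.9% to about 12% in both (11.94% and 11.98%). The 10 inhibitors together went from 60.6 and 56.8 FPKM to 49.2 and 47.1 FPKM. Sfrp2 (log2 fold change -0.10, 95% interval -0.52 to 0.32), Dkk2 (0.79, -0.03 to 1.62) and Wif1 (0.67, -0.40 to 1.73) were not called. Wif1 had 6 and 18 counts in Ezh2 f/f against 20 and 21 in Ezh2 cKO, and without Ezh2 f/f replicate 2 it was called higher, at 1.72 (adjusted p = 0.0141, edgeR, range 0.0141 to 0.945).

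Apcdd1 is a membrane protein that blocks the pathway at the receptor and is itself a known WNT target in brain endothelium. It had 3501 and 2958 counts in Ezh2 f/f against 2538 and 2310 in Ezh2 cKO. The groups did not overlap, which held for 84.3% of all genes tested. The log2 fold change was -0.50 (SE 0.09, adjusted p = 0.000231, edgeR), a call kept in all 12 alternatives.

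Of the 5 transcriptional effectors 3 were called lower (60%), 1 higher (20%) and 1 was not called. Of all genes tested 33.6% were called lower and 34.7% higher. Ctnnb1, which encodes β-catenin, was the most abundant by FPKM, with 4890 and 3577 counts in Ezh2 f/f against 5471 and 5207 in Ezh2 cKO. Its log2 fold change of 0.25 (SE 0.10, adjusted p = 0.0461, edgeR) had the largest adjusted p of the 31 calls and was lost in 7 of 12 alternatives (adjusted p from 8.08e-05 to 0.433), among them those without Ezh2 f/f replicate 2 (0.09, adjusted p = 0.433), without Ezh2 cKO replicate 1 (adjusted p = 0.223) and without Ezh2 cKO replicate 2 (adjusted p = 0.137). Tcf7l1, mostly a repressor of WNT targets, had 249 and 214 counts in Ezh2 f/f against 140 and 117 in Ezh2 cKO (-0.94, SE 0.17, adjusted p = 0.000196, edgeR), and it kept its call in every alternative. Tcf7 gave -0.42 (adjusted p = 0.0343, edgeR), a call lost in 8 of 12 alternatives, including each of the 4 that leave out a library (adjusted p from 0.0668 to 0.136, range 0.0289 to 0.136 over all 12).

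Tcf7l2 shows how much a single library can carry. It is known as a marker of the thalamus as well as an effector of β-catenin. It had 88 and 1457 counts in Ezh2 f/f against 60 and 75 in Ezh2 cKO. Replicate 2 of Ezh2 f/f was far above the other 3 libraries, which lay close together. With all libraries the log2 fold change was -3.65 (SE 0.84, adjusted p = 0.00144, edgeR). Without Ezh2 f/f replicate 2 it was -0.41 and not called (adjusted p = 0.179), and without either Ezh2 cKO library the call was lost as well (adjusted p = 0.086 and 0.0634). The range over its alternatives was 1.05e-189 to 0.351. The thalamic and midbrain regulators, chosen after their values were seen, were high in Ezh2 f/f replicate 2, and their part in the Tcf7l2 value was not tested. Lef1 had 36 and 75 counts in Ezh2 f/f against 60 and 59 in Ezh2 cKO, with a log2 fold change of -0.01 (95% interval -0.71 to 0.70) that was 0.69 without Ezh2 f/f replicate 2 (adjusted p = 0.0667, range 0.0667 to 0.993).

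**Figure D4:**
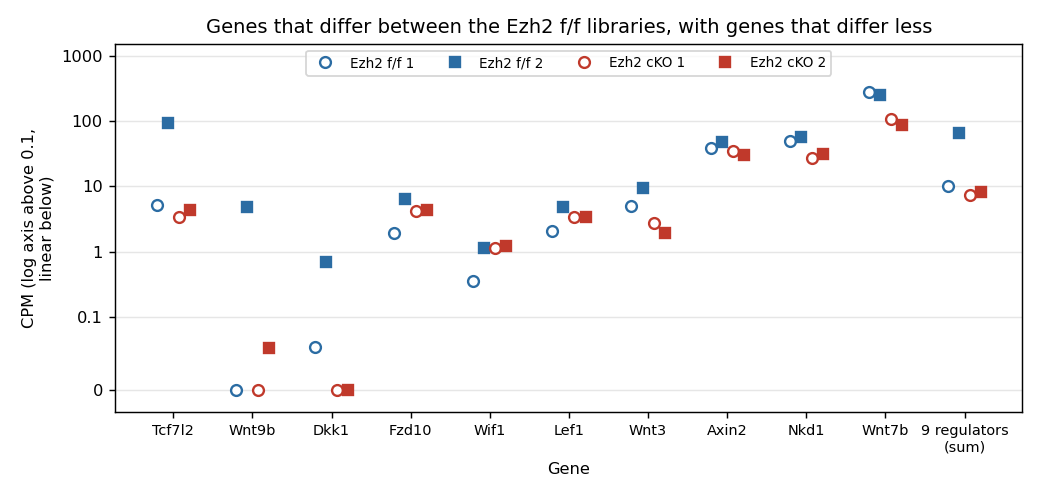
CPM in each library (log axis above 0.1, linear below) for WNT genes that differ between the Ezh2 f/f libraries, for Axin2, Nkd1 and Wnt7b, and for the sum of 9 thalamic and midbrain regulators; blue marks are Ezh2 f/f, red marks Ezh2 cKO, open circles replicate 1 and filled squares replicate 2. Tcf7l2, Wnt9b and the regulators are high in Ezh2 f/f replicate 2 alone, while Nkd1 and Wnt7b separate by group. The regulators were chosen after their values were seen.

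The 2 genes placed in the feedback role here, which canonical signalling is known to induce, were both lower. This role is not the whole of the pathway's regulation. Notum and Rnf43, placed in other roles, were called higher, and Znrf3 and Lef1 were not called. Nkd1 had 845 and 886 counts in Ezh2 f/f against 486 and 549 in Ezh2 cKO, for a log2 fold change of -0.84 (SE 0.11, adjusted p = 1.35e-05, edgeR) that held in all 12 alternatives. Axin2 had 662 and 754 counts and then 616 and 527 (-0.41, SE 0.12, adjusted p = 0.00902, edgeR). Its groups did not overlap in CPM, like those of 84.3% of all genes tested, but the gap was small. Axin2 was not called with limma on FPKM, with or without the FPKM filter. Without Ezh2 f/f replicate 2 it was -0.25 and not called (adjusted p = 0.086), and without Ezh2 cKO replicate 2 it was not called either (adjusted p = 0.138, range 5.93e-05 to 0.169).

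Among the 31 called genes, 16 were called in the same direction in every alternative that gave a value. These were Wnt2, Wnt2b, Wnt4, Wnt9a, Lgr6 and Sfrp4 on the higher side. On the lower side they were Wnt5b, Wnt7a, Wnt7b, Wnt10b, Fzd1, Lrp6, Sfrp1, Apcdd1, Tcf7l1 and Nkd1. Of these, Wnt2, Wnt2b, Wnt10b and Sfrp4 gave a value in only 9 of the 12 alternatives, and the others in all 12.

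Several WNT genes lie side by side in the genome. In none of the pairs described here were both WNT genes called, so their directions could not be compared by calls. On chromosome 15 Wnt10b and Wnt1 are 11.7 kb apart, and Ddn follows 9.94 kb after Wnt1 with no other listed gene beginning between them. Wnt10b fell while Ddn, which encodes the cytoskeletal protein dendrin, had 1004 and 795 counts in Ezh2 f/f against 9601 and 9075 in Ezh2 cKO (log2 fold change 3.29, SE 0.10, adjusted p = 2.49e-11, edgeR). Wnt1, between them, had 6 and 12 counts and then 13 and 23 and was not called. On chromosome 1 Wnt6 and Wnt10a are 6.19 kb apart, and of these Wnt10a was called higher. Wnt9a, called higher, has Wnt3a 16.2 kb away, a gene with 4 counts in a single library. Wnt3, called lower, has Wnt9b 24.3 kb away, and in both the highest count was in Ezh2 f/f replicate 2. Distances are between the deposited positions, whose build is not settled: the submitters' processing notes name mm9, and only 1 of the 56 genes has the same position in GRCm38.

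The rest of the pathway was read from a list of 61 other genes, of which 60 were tested. In Ezh2 cKO 14 were called higher and 31 lower, with a median log2 fold change of -0.39, and 52 did not overlap between groups. These are 23.3% and 51.7% of the 60, beside 34.7% and 33.6% of all genes tested, and the share without overlap in all genes was 84.3%. The same shares over all genes stand behind each role. The destruction complex had 10 of 14 lower and 3 higher, and nuclear cofactors 8 of 12 lower and 1 higher. The role of non-canonical and planar polarity genes, which includes Ror1, Ror2, Ryk and Ptk7, had 7 of 11 lower and 1 higher. Dishevelled and its regulators had 4 of 8 lower and 2 higher. Genes of ligand secretion and other ligand-linked genes were mixed, with 2 of 3 higher and 1 lower in the former and 4 of 10 higher and 1 lower in the latter.

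Axin1, the scaffold of the destruction complex, had 3072 and 2766 counts in Ezh2 f/f against 753 and 677 in Ezh2 cKO (log2 fold change -2.12, SE 0.10, adjusted p = 5.51e-10, edgeR). Apc and Apc2, related proteins of that complex, moved in opposite directions. Apc had 4194 and 3114 counts and then 9839 and 10206 (1.37, adjusted p = 4.23e-08, edgeR), while Apc2, known mainly from neurons, had 22704 and 19977 and then 7578 and 6806 (-1.66, adjusted p = 7.06e-10, edgeR). Nkd2, a relative of Nkd1, fell from 1024 and 908 counts to 255 and 247 (-2.04, adjusted p = 1.86e-09, edgeR). Dact2, a binding partner of Dishevelled, rose from 164 and 133 counts to 1196 and 1277 (2.97, adjusted p = 1.92e-10, edgeR). Prickle2, a planar polarity gene of synapses, rose as well (1.51, adjusted p = 4.23e-08, edgeR). The kinase gene Gsk3b was not called (0.09, 95% interval -0.11 to 0.30). The markers of immature neurons fell and those of astrocytes, oligodendrocytes, their precursors and microglia rose beside these genes, and their part in these changes was not tested.

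Genes that make or receive the Wnt7 signal changed unevenly. Wls, the carrier that brings WNT proteins to the cell surface, had 265 and 282 counts in Ezh2 f/f against 421 and 448 in Ezh2 cKO (log2 fold change 0.57, adjusted p = 0.00178, edgeR). Porcn, the enzyme that attaches the lipid, fell from 1474 and 1237 counts to 1109 and 1084 (-0.40, adjusted p = 0.00214, edgeR). Reck and Adgra2, the endothelial partners that recognise Wnt7a and Wnt7b, were not called, at -0.18 (95% interval -0.57 to 0.21) and -0.26 (-0.49 to -0.02, adjusted p = 0.0511, edgeR). Ndp, which encodes Norrin and is made by astrocytes, rose from 48 and 53 counts to 134 and 148 (1.38, adjusted p = 6.61e-05, edgeR). Frzb, the secreted inhibitor also named Sfrp3, rose from 72 and 28 counts to 188 and 243 (2.02, adjusted p = 2.56e-05, edgeR). Of the ubiquitin ligases that remove frizzled receptors, Rnf43 rose (0.72, adjusted p = 0.014, edgeR) and Znrf3 was not called (-0.10, 95% interval -0.49 to 0.29).

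**Figure D5:**
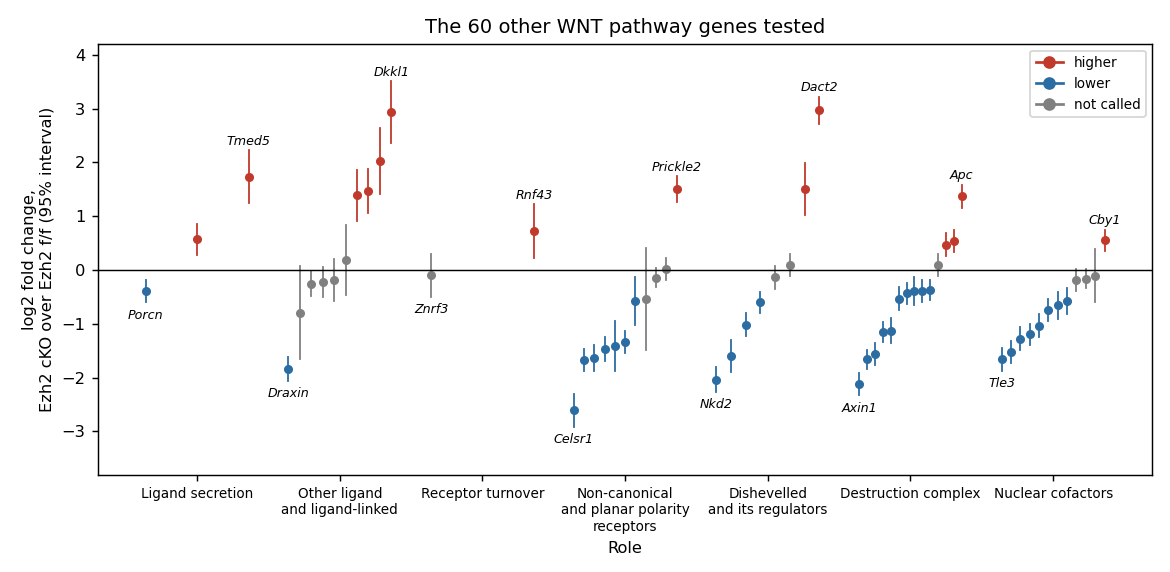
log2 fold change (Ezh2 cKO over Ezh2 f/f) with 95% intervals from edgeR for the 60 other WNT pathway genes tested, in 7 roles; red genes were called higher, blue genes lower and grey genes were not called, and the lowest and highest gene of each role is named. Most genes of the destruction complex, the non-canonical and planar polarity role and the nuclear cofactors lie below 0.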

How the data were processed

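Sequencing was on an Illumina platform; the labels name Trizol for RNA isolation, while the study's methods name a TIANGEN RNAprep kit for the sorted astrocytes. The authors deposited a raw count per gene for each library and FPKM values, which scale counts to gene length and library size. The submitters' processing notes name Bowtie2 2.2.3, TopHat2 2.0.12, HTSeq 0.6.0 and mm9, without roles. Whether counting used strand is not given in the sources used here. Columns of the authors' own comparison (means, ratios, p-values) were not used, and 0 sample columns were left out.

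Counts were tested with edgeR 4.0.16 in R 4.3.3 (filterByExpr, TMM, quasi-likelihood test with the group as the only term) over 16793 genes, with Benjamini-Hochberg adjustment. Every fold change puts Ezh2 cKO over Ezh2 f/f. With 2 libraries a group the smallest permutation p of a single gene is 0.333, so p-values come from models across genes. The 12 alternatives included DESeq2 1.42.0 and limma 3.58.1 on log2(FPKM + 1). Scripts were tested on simulated data. The members and lists were chosen with earlier results of these data known. By rule each tested member is named, and of the other pathway genes 10 fixed ones and the 3 higher and 3 lower with the smallest p. Dkkl1, Tmed5 and other genes labelled in the plots are the extremes of their role. Tspan12, named beside Fzd4, is outside that rule. Of the 56 genes, 17 overlap another listed gene. Promoter windows are RefSeq's (GRCm38.p6).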

Additional observations from a re-analysis of the deposited data

How the results depend on the processing

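The 49 tested genes gave 544 values over the 12 alternatives, of which 471 kept direction and side of the threshold, 49 lost a call, 15 gained one and 9 changed sign. The count called lower was 22, and it was 14 with limma on log2(FPKM + 1), where 34 genes passed the FPKM filter, and 13 without that filter. With a library left out the genes called higher ranged from 8 to 11 and those called lower from 16 to 21. The median of -0.19 was -0.36 without the count filter and -0.38 with a mean of at least 50 counts, which test 56 and 35 genes, and lay between -0.12 and -0.43 with a library left out. Leaving out a library gave -0.56 to 1.13 for Fzd10, -0.74 to 0.11 for Fzd5, -0.30 to 0.46 for Rspo3, -0.21 to 0.023 for Sfrp2 and -0.48 to 0.69 for Lef1. Lef1 was also 0.030 with a mean of at least 50 counts and 0.028 with limma without the filter. The cause of these changes was not tested. Deviations of same-numbered libraries from their group means correlated only weakly (0.130 across the 16793 genes tested), so the numbers are not taken as pairs. Xist and Ddx3y did move with the replicate number. With a replicate block 9 genes were called higher and 22 lower, and no call changed, while Lef1 went to 0.052. At these depths 3 counts are 0.171 to 0.184 CPM, which limits Wnt2, Wnt10a and the 7 genes not tested.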
